A study of Mus musculus with 18 samples.

Results

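The plasma protein genes of the hepatocyte were followed in mouse hepatoma cells with a functional or a DNA-binding-deficient aryl hydrocarbon receptor (AHR). The group was a written list of 39 genes, nearly all for proteins that the liver secretes into blood. *Ttpa*, whose product stays in the cytosol and loads vitamin E for export, was kept as listed. Each gene was read from the probe set that carried its symbol and no other, and where several did, from the one with the highest mean over all arrays. In all, 37 of the 39 were measured, among 18193 genes named on the array. *Trf*, whose only probe set carried a second symbol, and *C3*, which had no probe set named for it alone, were left out.

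RNA came from 6 groups of 3 arrays, which the methods describe as biological replicates. *c*35 cells, 1 derivative line of Hepa-1c1c7 with an AHR that cannot bind DNA because of a missense mutation, received the dioxin TCDD (5 nM), the polycyclic hydrocarbon benzo[*a*]pyrene (BaP, 5 µM) or the solvent dimethyl sulfoxide (DMSO) alone. Wild-type Hepa-1c1c7 cells, the mouse hepatoma line from which *c*35 derives, received the same. All cells were harvested after 8 hr, and cells given only DMSO are called naive. For wild-type cells under TCDD the labels omit the dose, and that of the methods is given. With 1 mutant line, the receptor mutation and any other difference between the lines cannot be told apart.

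Hepatocytes make most of the protein of blood plasma. Albumin carries fatty acids, hormones and drugs, apolipoproteins carry lipid, and a chain of proteases, cofactors and inhibitors forms and dissolves the fibrin clot. These genes are switched on by liver-enriched transcription factors of the HNF and C/EBP families, and their levels are commonly read as a sign of how far a hepatoma line still resembles liver. The AHR binds dioxins and polycyclic hydrocarbons, enters the nucleus, pairs with ARNT and acts at DNA sites with the core GCGTG.

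The values are log2 signals, on which a doubling is a step of 1, and all differences are on this scale. Signals of different probe sets are not on a common scale of RNA amount, so levels are set only against the median of all probe sets, 5.66. A measure of RNA integrity was the excess of the 3′ over the 5′ probe set of the *Actb* control. It was 0.30 to 0.53 on the 9 *c*35 arrays and 0.73 to 1.38 on the 9 wild-type arrays. Its part in the differences between the lines was not tested beyond a fit that holds it as a covariate. The ranges of the lines do not overlap, so that fit cannot cleanly separate this measure from the line. Wild-type DMSO replicate 1 carried the highest *Actb* value and the lowest array weight, 0.289, and its values are named where they stand apart. Less RNA per cell and fewer cells making it cannot be told apart in these bulk cultures.

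Of the 37 genes, 9 lay above the median signal on all 18 arrays, or 24.3%, beside 54.7% of all genes. Among them, 4, *Alb* (albumin), *Afp* (alpha-fetoprotein, its fetal counterpart), *Cp* (ceruloplasmin, the copper ferroxidase) and *Rbp4* (the plasma carrier of retinol), lay above a log2 signal of 10 on every array. The other 5 were *Apoa2*, *Itih2*, *Serpinf1*, *Serpinf2* and *Ttr*, the thyroxine carrier transthyretin. On the other side, 20 of the 37, or 54.1%, lay below the median on all 18 arrays, with signals of 2.37 to 5.62, beside 35% of all genes. The remaining 8, among them *Hp*, *Apoa1*, *Apob* and *Serpind1* (heparin cofactor II), lay on both sides of it.

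By role, the dim genes took in all of 1 main group and parts of the others. All 7 measured fibrinogen chains and clotting proteases were among them, namely the fibrinogen chains *Fga*, *Fgb* and *Fgg*, prothrombin (*F2*) and the factors *F7*, *F9* and *F10*. So were 4 of 7 regulators of clotting and fibrinolysis, namely *Kng1* (kininogen), *Plg* (plasminogen), *Proc* (protein C) and *Serpinc1* (antithrombin). The count was 3 of 6 among fetuins, bikunin and inter-alpha-trypsin inhibitor chains (*Ahsg*, fetuin-A, *Ambp*, the bikunin precursor, and *Itih3*), 3 of 9 among carriers (*Hpx*, the heme carrier hemopexin, *Serpina6*, the corticosteroid carrier, and *Ttpa*), 2 of 7 among apolipoproteins (*Apoa4*, *Apoc1*) and 1 of 1 for vitronectin (*Vtn*), an adhesion protein. A dim probe set can reflect its probes as well as its transcript, so this is a count of signals and not of silent genes.

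**Figure D1:**
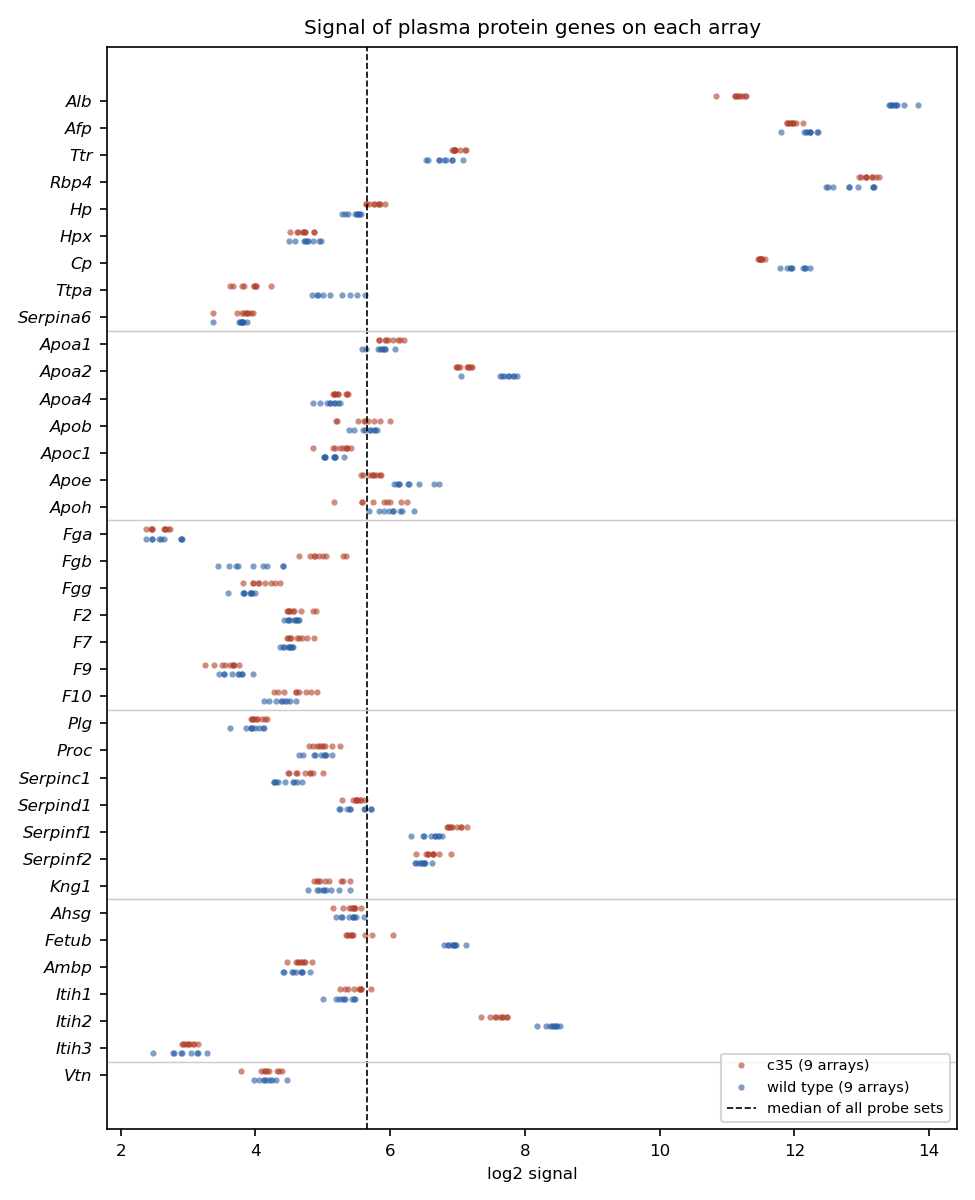
Log2 signal (horizontal axis) of the 37 measured plasma protein genes, 1 point per array, for *c*35 cells (red, 9 arrays) and wild-type cells (blue, 9 arrays), with grey lines between roles. The dashed line is the median of all probe sets, 5.66, with 20 genes to its left on all 18 arrays and 9 to its right.

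The label of the cells was read against liver genes that are not secreted. Of 13 measured hepatocyte markers of this kind, 12 had a mean below the median in both naive *c*35 and naive wild-type cells, among them the urea cycle genes *Cps1*, at 4.48 in *c*35 and 4.55 in wild-type cells, and *Otc*, at 3.04 in *c*35 and 2.82 in wild-type cells. The exception was *Fah*, of tyrosine breakdown, with means of 6.56 in naive *c*35 cells and 7.17 in naive wild-type cells. *Dcn* (decorin), a marker of fibroblasts, had a mean signal of 13.68 in naive *c*35 cells and 14.07 in naive wild-type cells. In a list of 10 stellate and fibroblast markers, 3 lay below the median in naive *c*35 cells and 3 in naive wild-type cells. Most of this list thus lay above the median in both lines, unlike the 13 hepatocyte markers, of which 12 lay below it. Of all genes, 35% lay below the median on all arrays, a stricter count than that of the naive cells alone. What these lists say about the label of the cells was not tested. Signals of different probe sets are not on a common scale, so *Dcn* alone does not decide the label of the cells.

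In naive cells the lines differed at 6 of the 37 genes. *Rbp4* and *Fgb* were higher in *c*35 cells, and *Alb*, *Fetub*, *Ttpa* and *Itih2* were lower. The criterion for a call was a limma adjusted p below 0.05 together with more than 1.5-fold. The 2 higher genes were 5.41% of the 37, beside 6.52% of all genes called higher, and the 4 lower genes were 10.8%, beside 7.52% of all genes. The 3 arrays of each line did not overlap for 16 of the 37, beside 47.4% of all genes, and for 15 and 16 under TCDD and BaP, beside 51.4% and 50.9%. The median difference, *c*35 minus wild type, was 0.09 over the 37 genes and 0.03 over all genes. In naive cells the plasma protein genes thus differed between the lines about as often as genes at large.

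*Alb* had the largest difference of the 37 in each of the DMSO, TCDD and BaP comparisons of the lines. In *c*35 cells its signal was 11.11, 11.20 and 11.26 with TCDD, 11.28, 10.84 and 11.12 with BaP, and 11.22, 11.15 and 11.17 with DMSO. In wild-type cells it was 13.42, 13.45 and 13.41 with TCDD, 13.51, 13.49 and 13.53 with BaP, and 13.84, 13.45 and 13.63 with DMSO. Every *c*35 array lay below every wild-type array by at least 2.12 on the log2 scale. In naive cells the difference was -2.46 (SE 0.09), a 5.50-fold lower signal in *c*35 cells (95% interval of the difference -2.65 to -2.27, limma adjusted p = 3.6e-14). It was -2.24 (SE 0.09) with TCDD and -2.43 (SE 0.09) with BaP.

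*Afp*, the neighbor of *Alb* on chromosome 5, was not called in any comparison of the lines. Naive *c*35 cells gave 11.89, 11.92 and 11.98 and naive wild-type cells 11.80, 12.34 and 12.18, so the groups overlapped through wild-type DMSO replicate 1. The difference was -0.18 (SE 0.09, 95% interval -0.38 to 0.02, limma adjusted p = 0.159). Without that replicate it was -0.33 (adjusted p = 0.000281), without replicate 2 of the wild type -0.06, and with the *Actb* measure as a covariate -0.45 (adjusted p = 0.0103), all below 1.5-fold. Under BaP it was -0.31 (adjusted p = 0.0139). All 5 *Afp* probe sets lay below 0 in naive cells, from -0.23 to -0.12, and none was called. The third marker of the liver secretory program, *Ttr*, gave 6.96, 6.92 and 6.96 in naive *c*35 cells and 6.56, 6.92 and 6.72 in naive wild-type cells, a difference of 0.22 (SE 0.11, limma adjusted p = 0.158). It was 0.13 without wild-type DMSO replicate 1 and 0.31 without wild-type DMSO replicate 2 (adjusted p = 0.0542). The other 3 probe sets of *Ttr* gave -0.03 to 0.05.

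The RefSeq promoters of this pair (GRCm38.p6, 250 bases before to 50 after the start, plus strand) are shown because *Alb* was called in every comparison of the lines and its neighbor in none. Capitals mark GTTAAT, an HNF1-type element, and TATAAA. *Alb* (chr5:90460620-90460919) holds 1 GTTAAT, at -32 from the start. *Afp* (chr5:90490464-90490763) holds 1 GTTAAT, at -105, and TATAAA at -7. Neither holds GCGTG on either strand.
Alb: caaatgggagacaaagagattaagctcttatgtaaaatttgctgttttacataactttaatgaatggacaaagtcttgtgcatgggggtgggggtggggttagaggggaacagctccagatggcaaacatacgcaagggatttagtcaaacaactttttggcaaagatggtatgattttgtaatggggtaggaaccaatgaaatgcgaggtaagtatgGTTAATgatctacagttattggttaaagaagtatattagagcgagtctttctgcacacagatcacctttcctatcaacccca
Afp: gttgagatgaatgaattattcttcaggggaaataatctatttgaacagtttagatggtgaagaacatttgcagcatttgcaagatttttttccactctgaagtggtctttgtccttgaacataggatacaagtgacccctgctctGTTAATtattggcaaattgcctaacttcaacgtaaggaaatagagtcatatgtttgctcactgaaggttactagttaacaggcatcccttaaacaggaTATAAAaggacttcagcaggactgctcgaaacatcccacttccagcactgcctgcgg
Over the 35 RefSeq promoters found for 29 of the genes, GTTAAT occurred on either strand in 9, or 25.7%, beside 7.1% of all 32851 promoters. TATAAA occurred in 9, or 25.7%, beside 13.6%, and TTGCAA, a C/EBP-type element that is its own reverse complement, in 6, or 17.1%, beside 6.23%. CCAAT occurred in 13, or 37.1%, beside 37.4%. These are matches of letters in a window and were not tested.

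*Fetub* encodes fetuin-B, an inhibitor of metalloproteases. Its signal was 5.45, 5.43 and 6.04 in naive *c*35 cells and 6.98, 6.95 and 6.92 in naive wild-type cells. The *c*35 arrays lay below the wild-type arrays throughout, with *c*35 DMSO replicate 3 nearest to them. The difference was -1.31 (SE 0.14, 2.49-fold, limma adjusted p = 1.89e-07), with -1.42 under TCDD and -1.47 under BaP. *Ahsg*, its neighbor on chromosome 16 and the gene of fetuin-A, differed by 0.06 in naive cells and was not called.

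*Itih2* encodes a heavy chain of inter-alpha-trypsin inhibitor, which is passed on to hyaluronan. It gave 7.62, 7.74 and 7.47 in naive *c*35 cells and 8.37, 8.42 and 8.47 in naive wild-type cells. The groups stood apart, with a difference of -0.81 (SE 0.09, 1.75-fold, limma adjusted p = 2.85e-07). It was -0.64 under TCDD and -0.95 under BaP. The other heavy chains did not show it, with *Itih1* at 0.20 and *Itih3* at 0.08 in naive cells, neither of them called.

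*Ttpa*, which moves vitamin E from the hepatocyte into lipoproteins, was dim in both lines. In naive *c*35 cells it gave 3.83, 3.66 and 3.98 and in naive wild-type cells 4.91, 5.01 and 4.84. The groups did not overlap, and the difference was -1.09 (SE 0.14, 2.13-fold, limma adjusted p = 3.12e-06). It was -1.13 under TCDD and -1.60 under BaP, where wild-type cells gave 5.50, 5.29 and 5.62.

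*Fgb*, the fibrinogen beta chain, was the only gene of the 37 called higher in *c*35 cells under all 3 treatments. Its signal was 5.01, 4.87 and 5.05 in naive *c*35 cells and 3.71, 3.96 and 4.40 in naive wild-type cells. The groups stood apart although every array lay below the median signal. The difference was 0.95 (SE 0.23, 1.93-fold, limma adjusted p = 0.0021), with 1.14 under TCDD and 1.01 under BaP. With the *Actb* measure as a covariate the naive difference was 0.995, with an adjusted p of 0.053. Fibrinogen is built from 3 chains encoded side by side on chromosome 3, and the other chains were not called, with *Fga* at 0.18 and *Fgg* at 0.29 in naive cells.

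Among 8 pairs of listed genes that are next to each other on a chromosome, 3 had 1 called member in naive cells (*Alb* and *Afp*, *Fetub* and *Ahsg*, *Fgb* and *Fga*), none had both called, and 5 had neither. Of the listed genes, 16.2% were called in naive cells, so pairs with both called would be rare in any case. The same counts were not made over all neighboring genes, and whether these pairs differ from them was not tested.

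**Figure D2:**
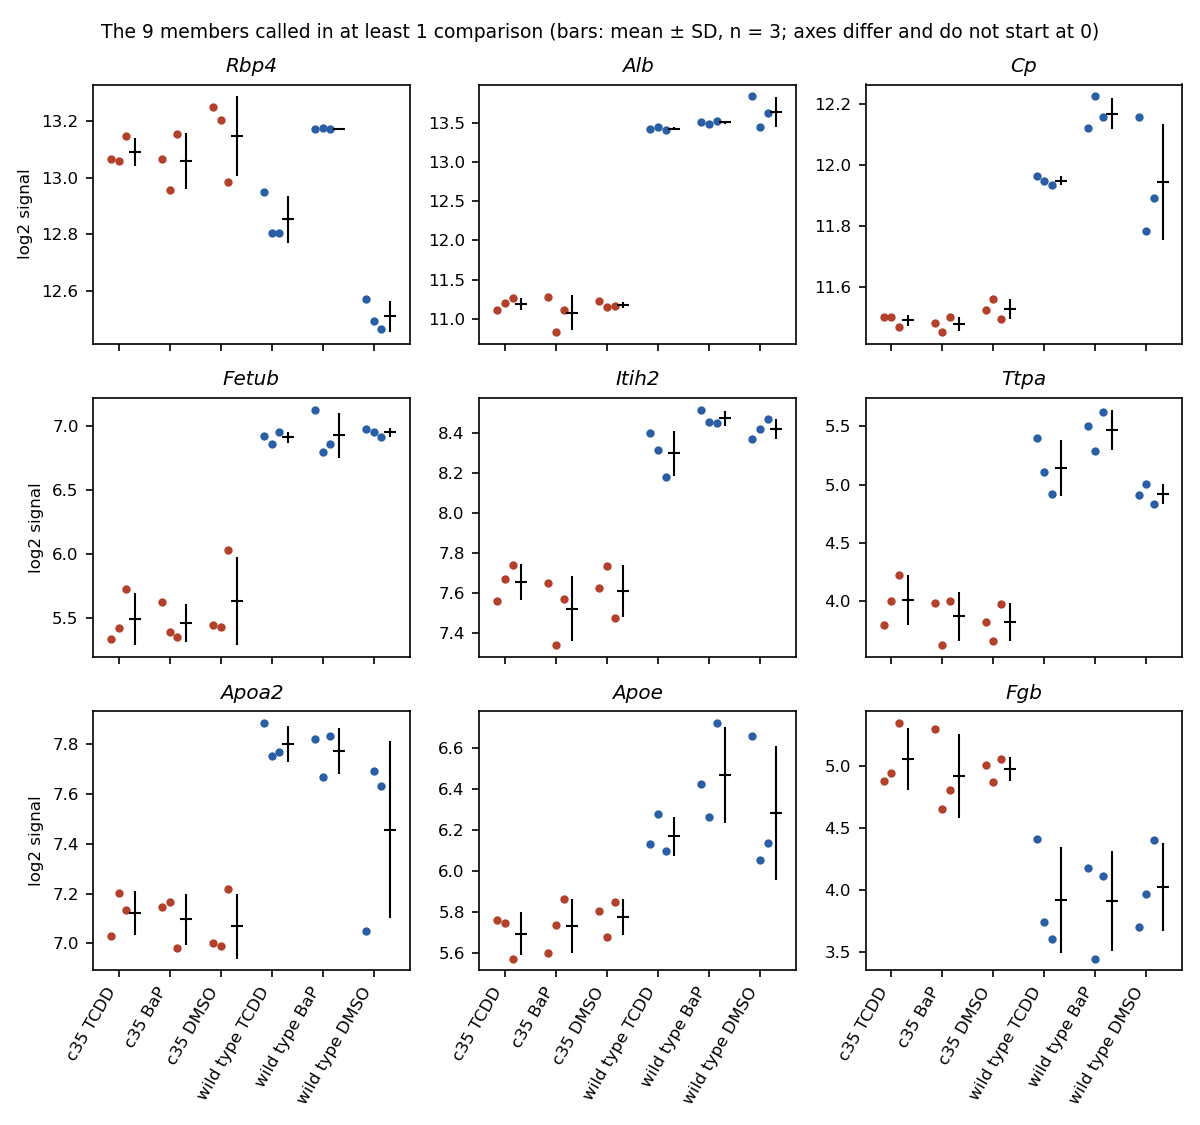
Log2 signal (vertical axes, which differ and do not start at 0) of the 9 plasma protein genes called in at least 1 comparison, 1 point per array, in *c*35 cells (red) and wild-type cells (blue) given TCDD, BaP or DMSO, with bars for mean ± SD (n = 3). *Alb*, *Cp*, *Fetub*, *Itih2*, *Ttpa* and *Apoe* lie lower on all *c*35 arrays, *Fgb* lies higher, *Apoa2* overlaps through wild-type DMSO replicate 1, and *Rbp4* differs among the wild-type groups.

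The comparisons of the lines under TCDD and under BaP share no array with each other or with that of naive cells. Under TCDD, 1 gene was called higher, beside 6.32% of all genes, and 5 lower, or 13.5% of the 37, beside 8.65%. Under BaP, 1 was called higher, beside 6.83%, and 7 lower, or 18.9%, beside 8.98%. Called the same way in all 3 comparisons were 1 gene in the higher direction (*Fgb*) and 4 in the lower (*Alb*, *Fetub*, *Itih2*, *Ttpa*), or 2.7% and 10.8% of the 37, beside 4.67% and 5.82% of all genes. In none of the 3 were 28 of the 37 genes called, beside 14571 of all 18193 genes. Over all treatments together, all 9 *c*35 arrays lay above all 9 wild-type arrays for 3 genes (*Fgb*, *Hp*, *Serpinf1*), beside 13.9% of all genes. For *Serpinf1* this held for its brighter probe set, and the other is given below. All 9 *c*35 arrays lay below all 9 wild-type arrays for 6 genes (*Alb*, *Apoe*, *Cp*, *Fetub*, *Itih2*, *Ttpa*), beside 14.4%.

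The apolipoproteins held 2 genes called in only part of these comparisons. *Apoa2*, a protein of high-density lipoprotein, gave 7.03, 7.20 and 7.13 with TCDD and 7.15, 7.17 and 6.98 with BaP in *c*35 cells, against 7.88, 7.75 and 7.77 with TCDD and 7.82, 7.67 and 7.83 with BaP in wild-type cells. The groups stood apart, by -0.68 (SE 0.12) under TCDD and -0.67 (SE 0.12) under BaP (limma adjusted p = 0.000157 and 0.000166). Naive *c*35 cells gave 7.00, 6.99 and 7.22 and naive wild-type cells 7.05, 7.69 and 7.63, which overlapped through replicate 1 of the wild type. That difference was -0.39, below the 1.5-fold limit. It was past the limit without this replicate, at -0.59, and with the *Actb* measure as a covariate, at -0.68 (limma adjusted p = 0.00723).

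*Apoe*, the ligand of lipoprotein receptors, gave 5.60, 5.73 and 5.86 in *c*35 cells and 6.42, 6.26 and 6.72 in wild-type cells under BaP. The groups did not overlap, at a difference of -0.74 (SE 0.14, 1.67-fold, limma adjusted p = 0.000198). It was -0.51 in naive cells and -0.47 under TCDD, both below 1.5-fold. Naive wild-type cells gave 6.66, 6.05 and 6.13, with replicate 1 apart from the others, and without it the naive difference was -0.32 (adjusted p = 0.0564). With the *Actb* measure as a covariate the difference was -0.42 under BaP (adjusted p = 0.137) and -0.19 in naive cells (adjusted p = 0.602). *Apob*, *Apoc1*, *Apoa1* and *Apoa4* were called in no comparison, and *Apoh*, a phospholipid-binding protein, gave -0.58 from its brighter probe set and 0.11 from the other in naive cells, neither called. The limit of 1.5-fold lies close to the value of the brighter probe set. This probe set was called without *c*35 DMSO replicate 1 (-0.71) or 3 (-0.62) and without wild-type DMSO replicate 1 (-0.70) or 2 (-0.60). It was also called with array weights (-0.74) and with the *Actb* covariate (-0.96). Without *c*35 DMSO replicate 2 it was -0.42 (adjusted p = 0.0674), and without wild-type DMSO replicate 3 it was -0.44 (adjusted p = 0.0555).

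*Cp* was read by 8 probe sets. The brightest gave 11.48, 11.45 and 11.50 in *c*35 cells and 12.12, 12.23 and 12.16 in wild-type cells under BaP, with no overlap. The difference was -0.69 (SE 0.07, 1.61-fold, limma adjusted p = 8.57e-08), and with the *Actb* covariate -0.53, below 1.5-fold. It was -0.42 in naive cells and -0.46 under TCDD. Of the 8 probe sets, 7 were called lower under BaP, 1 under TCDD and none in naive cells, and under BaP and TCDD all 8 lay below 0.

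Smaller differences passed the adjusted p but not 1.5-fold. In naive cells there were 7 of these. On the lower side were *Apoa2*, *Apoe*, *Apoh* and *Cp* (*Apoe* with the limits given above). On the higher side were *Hp* (haptoglobin, 0.30), *Serpinc1* (0.38) and *Serpinf1* (pigment epithelium-derived factor, 0.44). The other probe set of *Serpinf1* did not show this, with 0.01 in naive cells, -0.14 under TCDD and -0.21 under BaP. For 26 of the 37 genes the 95% interval of the naive difference lay within 1.5-fold on both sides. A larger difference of signal was outside it. The intervals of 29 genes lay within 1.5-fold under TCDD and of 28 under BaP. Most of the 26 genes were below the median signal on all 18 arrays. There a narrow interval bounds the signal of the probe set and need not bound the change in its transcript.

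**Figure D3:**
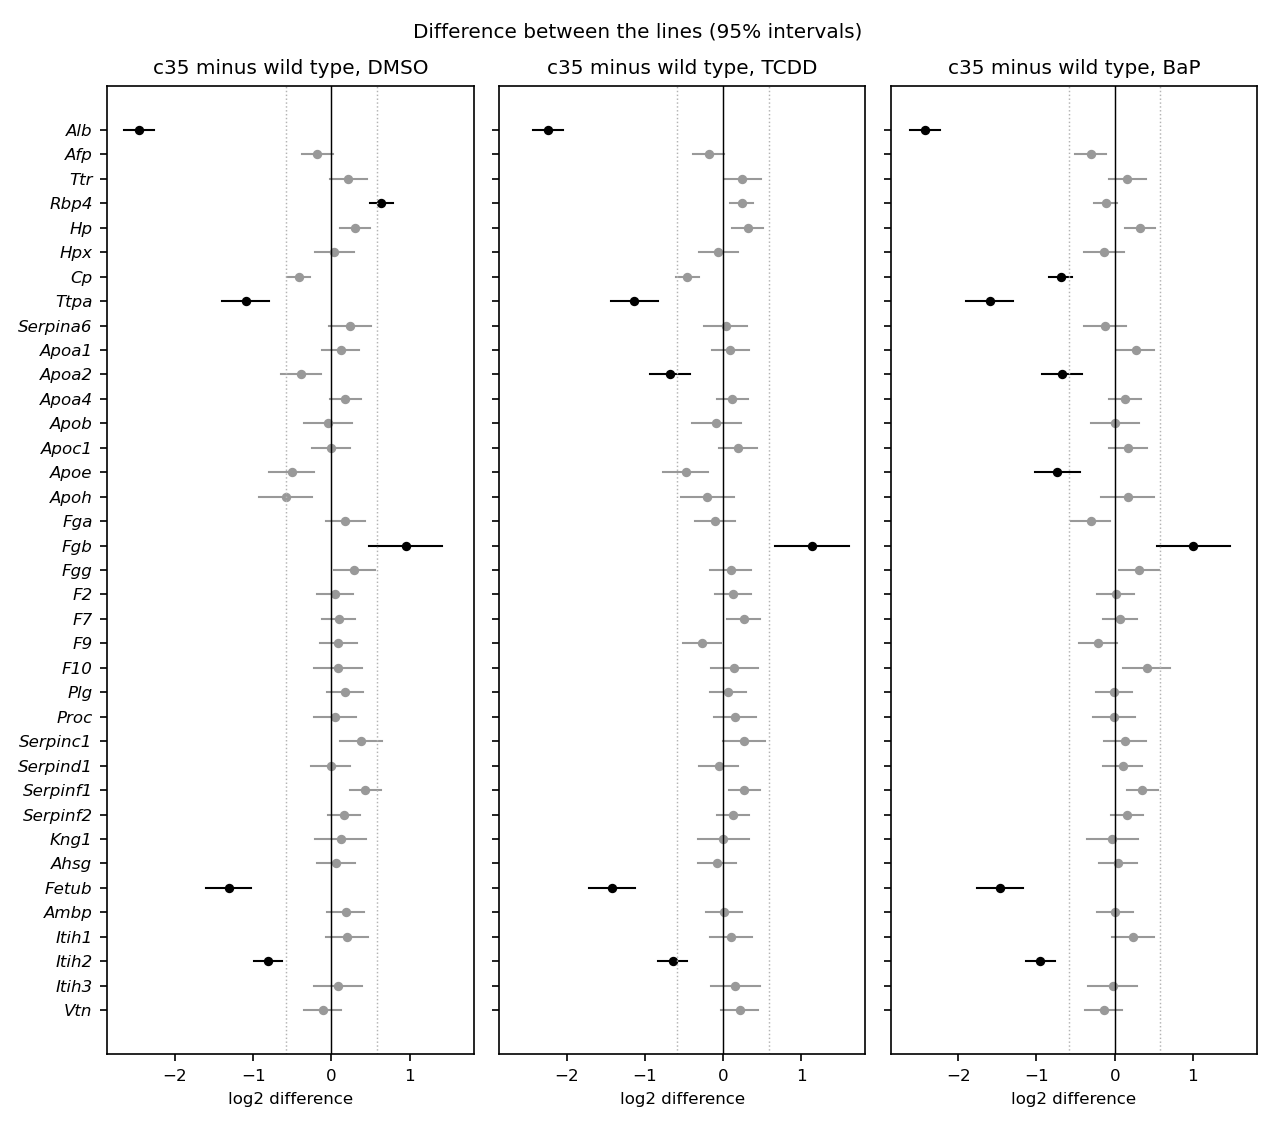
Log2 difference, *c*35 minus wild type (horizontal axes), of the 37 plasma protein genes in cells given DMSO, TCDD or BaP, with 95% intervals. Black points passed an adjusted p of 0.05 and 1.5-fold (dotted lines), grey points did not. *Alb* stands at -2.46, -2.24 and -2.43, and *Fgb* at 0.95, 1.14 and 1.01.

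With ligand, 1 of the 37 genes was called. *Rbp4* rose with BaP in wild-type cells, and no listed gene was called lower. The 1 call was 2.7% of the 37, beside 0.885% of all genes called higher and 0.434% called lower. At an unadjusted p below 0.05, BaP gave 5 higher and 0 lower, beside 9.14% and 10% of all genes. With TCDD none was called, beside 0.341% higher and 0.0385% lower among all genes, and at an unadjusted p below 0.05 there were 5 higher and 1 lower, beside 8.28% and 5.99%. The groups did not overlap for 5 of 37 genes under BaP, beside 23.8% of all genes, and for 6 under TCDD, beside 18.3%.

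*Rbp4* gave 12.95, 12.80 and 12.80 with TCDD, 13.17, 13.18 and 13.17 with BaP and 12.57, 12.49 and 12.46 with DMSO in wild-type cells. The 3 groups stood apart, with BaP the highest and DMSO the lowest. BaP minus DMSO was 0.66 (SE 0.07, 95% interval 0.52 to 0.81, 1.59-fold, limma adjusted p = 4.5e-06). TCDD minus DMSO was 0.34 (SE 0.07, 1.27-fold, adjusted p = 0.0196) and TCDD minus BaP was -0.32 (SE 0.07, adjusted p = 0.0244), both below 1.5-fold.

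In *c*35 cells *Rbp4* gave 13.07, 13.06 and 13.15 with TCDD, 13.07, 12.96 and 13.16 with BaP and 13.25, 13.20 and 12.99 with DMSO. These 3 groups overlapped. The differences were -0.06 (SE 0.07) for TCDD and -0.09 (SE 0.07) for BaP, and the 95% interval for BaP, -0.23 to 0.06, did not reach the response of the wild type. The BaP response of *c*35 cells minus that of wild-type cells was -0.75 (SE 0.10, limma adjusted p = 0.0002), the 1 call among the 37 (2.7%), beside 1.01% of all genes called lower and 0.330% called higher. The same difference for TCDD was -0.40 (SE 0.10), with an adjusted p of 0.137, and no listed gene was called there, beside 0.275% lower and 0.00550% higher, while at an unadjusted p below 0.05 there were 0 higher and 2 lower, beside 3.07% and 4.83%. For BaP that looser limit gave 1 higher and 4 lower, beside 6.78% and 7.75%.

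With DMSO alone *Rbp4* was higher in the mutant line. Naive *c*35 cells exceeded naive wild-type cells by 0.64 (SE 0.07, 1.56-fold, limma adjusted p = 2.6e-07). Under TCDD the difference was 0.24, below 1.5-fold, and under BaP it was -0.11 (adjusted p = 0.231). The naive arrays of both lines enter this difference and the response difference above, so these are not independent.

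The promoter of *Rbp4* is shown because it alone among the 35 promoters held at least 3 copies of the AHR core GCGTG, counted on both strands, as did 3.91% of all promoters. In the set as a whole the core was not frequent, in 6 of 35 promoters, or 17.1%, beside 32.4% of all. Capitals mark GCGTG, read as CACGC on the other strand, and TATAAA. It lies at chr19:38124762-38125061 on the minus strand of GRCm38.p6, with GCGTG at -157, 8 and 39 from the start and TATAAA at -28.
Rbp4: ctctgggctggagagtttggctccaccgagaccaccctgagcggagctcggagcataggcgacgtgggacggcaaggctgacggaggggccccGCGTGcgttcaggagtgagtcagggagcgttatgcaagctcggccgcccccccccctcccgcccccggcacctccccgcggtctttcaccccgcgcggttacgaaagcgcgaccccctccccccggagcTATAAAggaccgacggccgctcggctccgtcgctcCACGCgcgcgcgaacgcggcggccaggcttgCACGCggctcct
A second RefSeq promoter of *Rbp4*, farther upstream, held no GCGTG. Binding of the receptor to these sites was not measured in the arrays used here.

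*Ttpa* came closest to a second call in wild-type cells. It gave 5.40, 5.11 and 4.92 with TCDD, 5.50, 5.29 and 5.62 with BaP and 4.91, 5.01 and 4.84 with DMSO, so the BaP arrays lay above the DMSO arrays and the TCDD arrays overlapped with both. BaP minus DMSO was 0.55 (SE 0.14, 1.47-fold, limma adjusted p = 0.0255). It passed 1.5-fold without wild-type BaP replicate 2, at 0.65, and without wild-type DMSO replicate 2, at 0.60. Without any 1 of the other 4 arrays of these groups the adjusted p was above 0.05, up to 0.124 without wild-type BaP replicate 3, where the difference was 0.48.

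*Alb*, *Afp* and *Ttr* were not called for a ligand in wild-type cells. Relative to DMSO, TCDD gave -0.21 for *Alb*, 0.09 for *Afp* and 0.05 for *Ttr*, and BaP gave -0.13 for *Alb*, 0.15 for *Afp* and 0.11 for *Ttr*. *Cp* gave 0.00 with TCDD and 0.22 with BaP (adjusted p = 0.0725), and under BaP all 8 of its probe sets lay above 0, from 0.09 to 0.42, none of them called. The 95% interval lay within 1.5-fold for 36 of 37 genes under TCDD and for 35 under BaP. The exceptions were *Apoa2* for TCDD and *Rbp4* and *Ttpa* for BaP. For genes below the median signal this bounds the signal and need not bound the change in transcript.

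In *c*35 cells neither ligand moved a listed gene past an adjusted p of 0.1, the looser limit used there, and 0% of all genes passed it. With limma the lowest adjusted p among the 37 was 0.962 for TCDD, and for BaP all rounded to 1. At an unadjusted p below 0.05, TCDD gave 2 higher and 0 lower, beside 2.29% and 2.87% of all genes, and BaP gave 1 higher and 1 lower, beside 1.57% and 1.97%. The arrays did not overlap for 3 genes under TCDD, beside 12.3%, and for 4 under BaP, beside 9.15%. The largest value was that of *Apoh* under BaP. Its signal was 6.25, 5.90 and 6.16 with BaP and 5.75, 5.16 and 5.58 with DMSO, a difference of 0.61 (SE 0.16), and its other probe set gave -0.10.

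The direct comparison of the 2 ligands in wild-type cells called none of the 37 genes, beside 0.137% of all genes higher under TCDD and 0.121% higher under BaP. At an unadjusted p below 0.05, 1 was higher and 5 were lower under TCDD, beside 8.79% and 7.13%, and the arrays of 7 genes did not overlap, beside 25.4%.

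**Figure D4:**
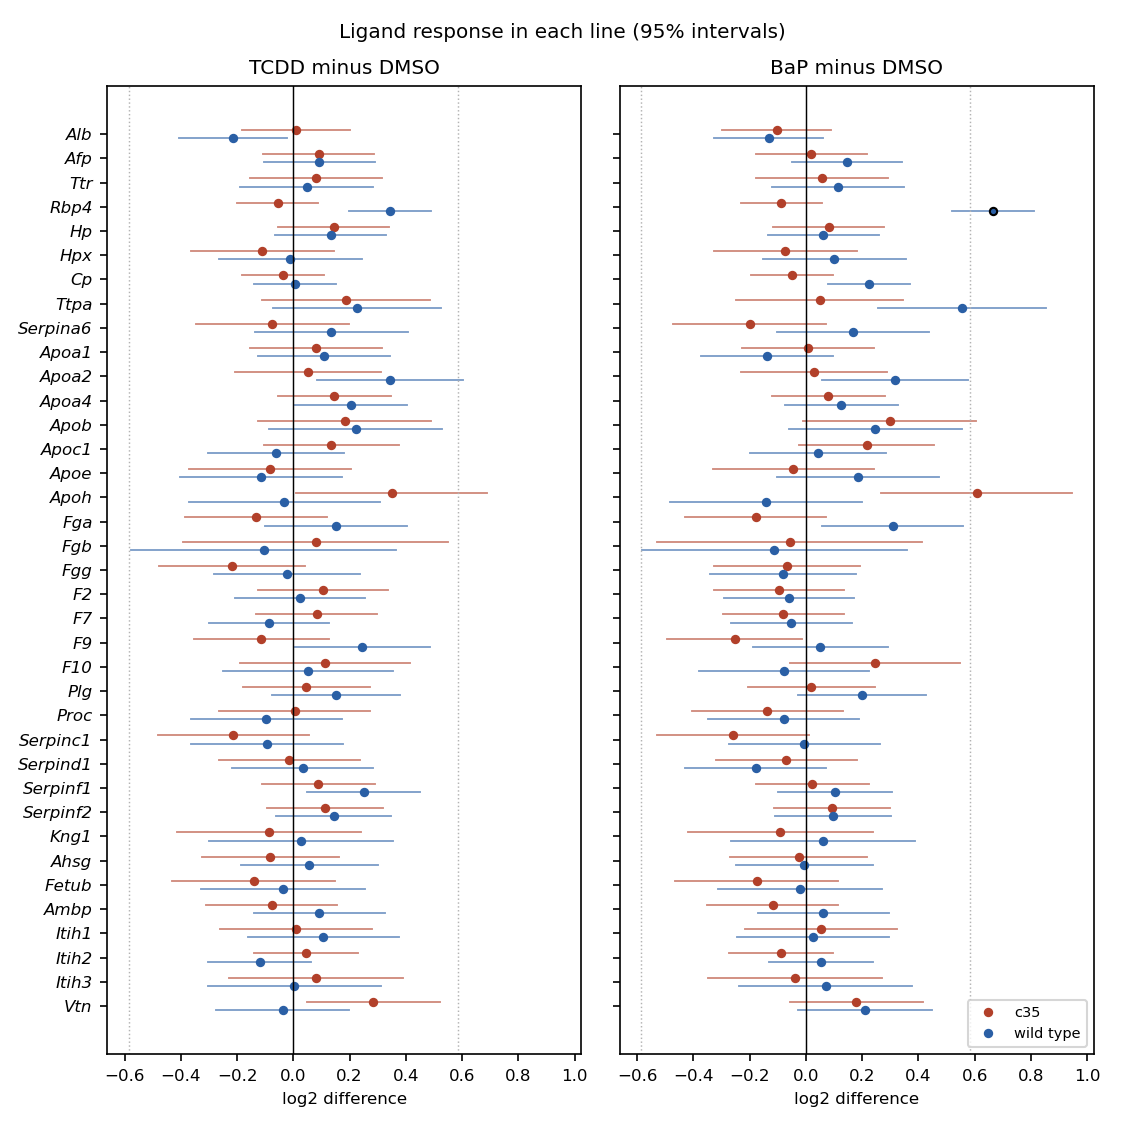
Log2 difference, ligand minus DMSO (horizontal axes), of the 37 plasma protein genes for TCDD and BaP in *c*35 cells (red) and wild-type cells (blue), with 95% intervals and dotted lines at 1.5-fold. The point with the black edge, *Rbp4* in wild-type cells given BaP at 0.66, is the 1 called gene.

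In a second list, of 58 other plasma proteins made by hepatocytes, 2 were higher and 4 lower in naive *c*35 cells, or 3.45% and 6.90%, beside 6.52% and 7.52% of all genes, with a median difference of 0.05. *Mst1* (macrophage-stimulating protein) was higher by 2.93 (SE 0.14), *F5* (clotting factor V) lower at -2.63 (SE 0.16) and *Selenop* (the selenium carrier) lower at -1.03 (SE 0.06). In wild-type cells 1 gene of the 58, or 1.72%, rose with each ligand, beside 0.341% of all genes for TCDD and 0.885% for BaP. It was *Klkb1* (plasma prekallikrein), by 0.98 (SE 0.12) with TCDD and 0.81 (SE 0.12) with BaP (limma adjusted p = 0.000191 and 0.000303), and its response in *c*35 cells minus that in wild-type cells was -1.15 for TCDD and -1.12 for BaP.

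Of 12 genes of interleukin 6 and C/EBP signaling, which drives many plasma protein genes in inflammation, 3 were higher and 1 lower in naive *c*35 cells, or 25% and 8.33%, beside 6.52% and 7.52% of all genes. *Cebpd* was higher by 2.55, *Socs3* by 1.01 and *Stat3* by 0.85, and *Jak2* stood at -0.90. In wild-type cells 3 of the 12 rose with BaP, *Socs3* by 0.72, *Il1r1* by 0.71 and *Cebpb* by 0.65, and *Il1r1* rose with TCDD by 0.70. The share of all genes called higher was 0.885% for BaP and 0.341% for TCDD. The BaP response of *c*35 cells minus that of wild-type cells was called lower for 2 of the 12, *Cebpb* at -0.73 and *Socs3* at -0.70. That is 16.7%, beside 1.01% of all genes called lower and 0.330% called higher.

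Markers of other cell types were read in the naive lines, where 6.52% of all genes were called higher in *c*35 cells and 7.52% lower. Of 9 macrophage markers 3 were higher in *c*35 cells. The signals of the list, summed on the linear scale, had a log2 of 12.51 to 12.56 in *c*35 cells and 11.44 to 11.49 in wild-type cells. Such a sum weighs the brightest probe sets most, and brackets give it for the other lists. Of 6 bile duct markers 3 were higher and 1 lower (11.97 to 12.10, against 11.19 to 11.31), and of 10 stellate and fibroblast markers 2 were higher and 1 lower (14.50 to 14.62, against 14.43 to 14.76). Of 6 hepatoblast markers 1 was lower, *Gpc3*, at -3.81 (8.28 to 8.35, against 10.27 to 10.53). None of 8 endothelial markers was called (7.91 to 7.96, against 7.80 to 7.84), and of the 13 hepatocyte markers that are not secreted *Fah* was lower at -0.61 (8.41 to 8.45, against 8.56 to 8.57). Their part in the differences of the plasma protein genes was not tested. No gene of these 6 marker lists was called for a ligand in either line.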

How the data were processed

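Total RNA from 18 cultures was hybridized to Affymetrix mouse arrays, in 6 groups of 3 taken from the sample labels. The authors deposited 1 table of log2 signals, made per the submitters' processing notes by robust multiarray averaging (RMA), which corrects background, normalizes between arrays and summarizes probes. The RMA version was not given in the sources used here. No further normalization was applied. Of 45101 probe sets, 64 controls were left out, and of the 45037 tested, 34945 carried 1 gene symbol in the platform annotation, 932 several and 9160 none.

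One mean per group was fitted to all 18 arrays by limma (version 3.58.1, under R 4.3.3), and variances were moderated with a prior that followed the mean signal, since the methods name limma and an intensity-based moderated test. For each comparison, Benjamini-Hochberg adjustment ran over all 45037 probe sets. The 10 comparisons were *c*35 against wild type under each treatment, TCDD or BaP against DMSO within a line, the 2 ligands against each other in wild-type cells, and, for each ligand, its response in *c*35 minus that in wild-type cells. Calls needed an adjusted p below 0.05 and more than 1.5-fold, or for ligands in *c*35 cells an adjusted p below 0.1. Percentages over all genes use 18193 genes, 1 probe set each, chosen by the same rule. The genes and lists were chosen with earlier results of these data known, so no p was adjusted over a list alone and no list was tested.

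Values on single arrays are given for called genes and for *Alb*, *Afp* and *Ttr*, and of other lists the called genes of largest change are named. *Apoh* and the naive values of *Apoa2*, *Apoe* and *Cp* were added after their values were seen. Promoters came from RefSeq. The alternatives were no intensity trend, array weights, quantile normalization, median centring, a filter at the median signal, other choices of probe set, a covariate for the *Actb* measure, a replicate block, dropping the minimum change or testing against it, fitting only the groups compared, and omitting single arrays. The fit was tested on simulated data. No arrays held identical values, and their number limits the precision, with 95% intervals of the differences within a line or treatment extending 0.14 to 0.47 on the log2 scale to each side. Figures were drawn with matplotlib 3.10.9.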

Additional observations from a re-analysis of the deposited data

Results flagged for a closer look

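*Rbp4* was singled out because its response to BaP differed between the lines by a test of the difference itself. The BaP response was -0.09 in *c*35 cells and 0.66 in wild-type cells, a difference of -0.75 (SE 0.10, limma adjusted p = 0.0002). With each array left out in turn the difference ranged from -0.83 to -0.70. The 3 *c*35 DMSO arrays, at 13.25, 13.20 and 12.99, already lay above the 3 wild-type DMSO arrays, at 12.57, 12.49 and 12.46.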

How the results depend on the processing

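Directions held under every alternative for the single genes followed, with 1 exception. The naive difference of *Apoh* was 0.11 from its second probe set instead of -0.58. With no minimum change, the counts in *c*35 against wild type were 5 higher and 8 lower in naive cells, 4 higher under TCDD and 4 higher under BaP, while wild-type TCDD gave 1 higher, wild-type BaP 2 higher, and TCDD against BaP 1 lower. A test against 1.5-fold itself (limma's treat) left 0 higher in each of the 3 comparisons of the lines. On the lower side it left *Alb*, *Fetub* and *Ttpa* in naive cells, 3 genes under TCDD and 4 under BaP. It left 0 for wild-type BaP and 0 for the difference in BaP response. The calls of *Rbp4*, *Fgb*, *Apoa2*, *Apoe* and *Cp* thus rest on the point estimate passing 1.5-fold. So do those of *Itih2* in naive cells (treat adjusted p = 0.143) and under TCDD. Leaving out probe sets below the median signal removed *Fgb* and *Ttpa* and gave 1 higher in naive cells (*Rbp4*), 0 under TCDD and 0 under BaP. With the *Actb* measure as a covariate 1 gene was higher in naive cells (*Rbp4*). In the same fit *Apoa2* (-0.68) and *Apoh* (-0.96) were added on the lower side in naive cells. *Apoe* and *Cp* were no longer called under BaP. Array weights gave 2 higher for wild-type BaP (*Rbp4* and *Ttpa*) and 1 higher for the difference in BaP response (*Apoh*).

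Leaving out each array in turn gave 4 to 6 lower in naive cells and 1 to 2 higher for wild-type BaP, and the other counts did not move. The naive lower count was 6 without wild-type DMSO replicate 1 (*Apoa2* and *Apoh* added) and 6 without wild-type DMSO replicate 2 (*Apoe* and *Apoh* added).

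Pairing by replicate number was not evident. Deviations of same-numbered arrays correlated at -0.26 to 0.22 over 45 pairs, with a median of 0.02 and 8 above 0.1. For differently numbered arrays it was -0.21 to 0.21 over 90 pairs, with a median of -0.02 and 12 above 0.1. With the replicate number as a block, naive *c*35 cells had 2 genes higher and 4 lower, as without it, and no other count of calls changed by over 1.5 times.

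The 3 arrays per group and a dim signal limit these results. Below the median signal, where 20 of the 37 genes lay, a lack of a difference can be a lack of signal.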
